A study of Mus musculus with 8 samples.

Results

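The identity of the ventromedial nucleus of the hypothalamus (VMH) was followed through 10 genes, *Nr5a1*, *Fezf1*, *Amigo2*, *Cdh4*, *Slit3*, *Sema3a*, *Nptx2*, *Cnr1*, *Vgll2*, and *Gda*, which are the gene of steroidogenic factor 1 (SF-1), genes known as its targets, and markers of the VMH. Every probe whose RefSeq accession belongs to these genes was taken, which gave 15 of the 55681 probes of the array and 10 of its 20284 gene symbols. The groups were the arcuate nucleus (Arc), the VMH, the dorsomedial nucleus (DMH), and the lateral hypothalamus (LH), each measured on 2 arrays (Arc1 and Arc2, VMH1 and VMH2, DMH1 and DMH2, LH1 and LH2). All of them were cut by laser microdissection from 2 female mice of 3 months, C57BL/6 in the labels and C57BL/6J in the methods, for which no transgene and no treatment is described. Which arrays share a mouse is not stated, so the p-values measure the spread between these samples, which may be technical.

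SF-1, the product of *Nr5a1*, is an orphan nuclear receptor that binds DNA as a monomer. In the adrenal gland and the gonads it drives the genes of steroid synthesis, whereas in the brain it is known as the defining factor of VMH neurons and is needed for the nucleus to form. The VMH is a mostly glutamatergic nucleus with known roles in energy balance, glucose control, and defensive and sexual behavior.

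Signals are given on a linear scale after each array was divided by its 75th percentile, and a probe counts as measured on an array when the scanner software called it well above background. With 2 arrays per nucleus, both values are printed in place of a standard deviation. The share of spots well above background ran from 47.1% on LH2 to 52.7% on DMH1, 0 spots were saturated, and LH1 held 364 outlier spots against 126 to 161 on the other arrays. The arrays of 1 nucleus correlated at 0.938 in the LH and at 0.971 to 0.981 in the other nuclei, while LH2 and DMH2 correlated at 0.954. The labelled nuclei were set against marker lists of each nucleus. Of the DMH list, the study picked *Npvf*, *Grp*, *Prdm13*, and *Skor1* on these arrays by their ratio between nuclei. In the same way it picked *Agrp*, *Npy*, and *Kiss1* of the Arc list and *Pvalb* of the LH list. The sums of these lists are thus no independent check of the labels. The summed signal of 9 Arc neuron genes was 13137 to 14708 on the VMH arrays and 246170 to 249072 on the Arc arrays. On the DMH arrays it was 41396 to 44831 and on the LH arrays 36698.5 to 50292. That of 6 DMH neuron genes was 762 to 1052 on the VMH arrays and 13598 to 16185 on the DMH arrays. That of 5 LH neuron genes was 7552 to 9185 on the VMH arrays and 43703 to 45093.5 on the Arc arrays. It was 78340 to 88174 on the DMH arrays and 150056 to 170609 on the LH arrays. *Cartpt* is in both the Arc and the LH list.

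By the brightest probe of each gene, all 10 genes had their highest mean in the VMH (14 of the 15 probes, with 25.8% of all tested probes), but they did not share 1 pattern across the other nuclei. *Nr5a1*, *Fezf1*, *Cdh4*, *Slit3*, and *Gda* were higher in the VMH than in each of the Arc, DMH, and LH by at least 1 probe with more than 4-fold differences. *Nptx2* and *Cnr1* were higher in the VMH than in each other nucleus too, with the lowest signals in the Arc and intermediate ones in the DMH and LH. The mean was lowest in the Arc for 6 of the 15 probes, with 26.6% of all probes. *Vgll2* was measured in the VMH, DMH, and LH but not in the Arc. *Amigo2* was higher in the VMH than in the DMH and LH and did not pass the test against the Arc, and the probes of *Sema3a* disagreed.

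Of the 15 probes, 12 were higher in the VMH than in the Arc (limma, adjusted p under 0.05), where 3.52% of all tested probes were. Against the DMH 13 probes were higher, with 1.1% of all probes, and against the LH 12 were higher, with 2.24% of all probes. Against each of the other nuclei at once, 11 probes of 7 genes were higher, with 0.54% of all probes. With any 1 array left out that count was 4 to 10, and by the Tukey-Kramer test of the methods all 4 counts were 0 after adjustment, and 12, 14, 13, and 11 at an unadjusted p under 0.05. The share of all probes at that unadjusted threshold was not counted, so the unadjusted counts have no background here. Both VMH arrays lay above all 6 others for 13 probes of 9 genes, as they did for 8.13% of all probes. By the limma F test 14 probes differed among the 4 nuclei, as did 8.33%. The median log2 difference of the 15 probes was 3.14 from the Arc, 2.73 from the DMH, and 2.36 from the LH, and over all 28896 tested probes it was -0.01, 0.02, and 0.02. The member medians were the same with bounds in place of differences from nuclei at background. No probe was lower in the VMH than in any other nucleus, neither at the adjusted threshold, which 2.4%, 0.945%, and 3.04% of all probes passed against the Arc, DMH, and LH, nor at an unadjusted p under 0.05, where the limma count was also 0. All 15 probes passed the filter on dim probes, but *Fezf1* and 1 *Gda* probe passed it only through the VMH, where they are high. The filter thus favored the calls of these 2 probes, which are not independent evidence. Without these 2 probes, 10 of 13 were higher than in the Arc, 11 than in the DMH, 10 than in the LH, and 9 than in each. The study picked *Nr5a1*, *Fezf1*, and that *Gda* probe on these arrays by their ratio between nuclei, so their direction is not independent evidence. The arrays are of whole tissue, in which fewer cells of a type and less RNA per cell cannot be told apart.

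**Figure D1:**
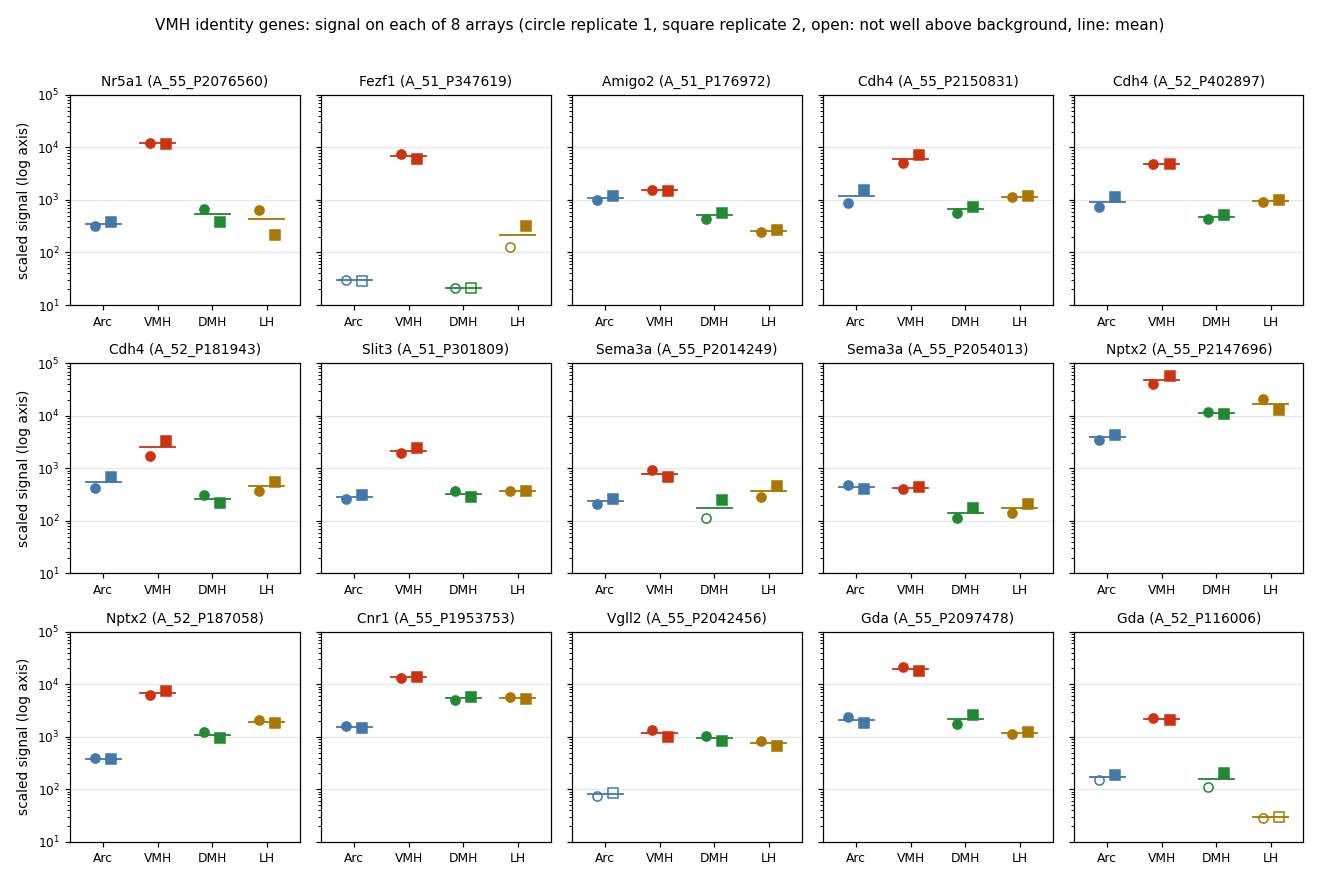
Scaled signal (log axis) of the 15 probes in the Arc, VMH, DMH, and LH, with a circle for replicate 1, a square for replicate 2, an open symbol where the probe was not well above background, and a line at the mean of the 2 arrays. Both VMH arrays lie above all 6 other arrays for 13 of the 15 probes, the exceptions being *Vgll2* and the *Sema3a* probe A_55_P2054013.

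The sequence just around the start of 4 of the genes is shown. *Fezf1*, *Slit3*, and *Gda* are the members whose calls against each other nucleus held whichever array was left out, although *Fezf1* entered the test only through the VMH, and *Cnr1* holds the 1 nuclear receptor hexamer found. Each window runs from 250 bases before to 50 bases after a start site in the RefSeq annotation of GRCm38.p6. The windows lie at chr6:23248215-23248514 on the minus strand for *Fezf1*, at chr11:35121206-35121505 on the plus strand for *Slit3*, at chr19:21472612-21472911 on the minus strand for *Gda*, and at chr4:33924014-33924313 on the plus strand for the first start of *Cnr1*. They are read 5′ to 3′ on the strand of the gene, and capitals mark the hexamer AGGTCA or its complement TGACCT, and the GC box GGGCGG or its complement CCGCCC.
Fezf1: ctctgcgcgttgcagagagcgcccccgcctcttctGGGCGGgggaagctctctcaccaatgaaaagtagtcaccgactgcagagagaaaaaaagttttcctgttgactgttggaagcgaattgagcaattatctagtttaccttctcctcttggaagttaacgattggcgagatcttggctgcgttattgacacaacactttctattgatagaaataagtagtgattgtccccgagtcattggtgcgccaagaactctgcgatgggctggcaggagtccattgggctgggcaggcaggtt
Slit3: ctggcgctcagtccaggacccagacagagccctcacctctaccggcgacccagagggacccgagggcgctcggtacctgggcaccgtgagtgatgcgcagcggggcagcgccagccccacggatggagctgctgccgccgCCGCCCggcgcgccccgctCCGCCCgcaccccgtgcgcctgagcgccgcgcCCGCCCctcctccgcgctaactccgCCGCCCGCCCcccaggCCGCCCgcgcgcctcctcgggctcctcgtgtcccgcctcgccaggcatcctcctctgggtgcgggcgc
Gda: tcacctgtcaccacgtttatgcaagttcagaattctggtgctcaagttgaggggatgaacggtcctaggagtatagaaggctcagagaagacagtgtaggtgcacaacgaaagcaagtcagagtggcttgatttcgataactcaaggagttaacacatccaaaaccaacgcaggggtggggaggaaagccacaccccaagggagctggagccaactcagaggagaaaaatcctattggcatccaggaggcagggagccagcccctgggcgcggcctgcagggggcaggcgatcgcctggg
Cnr1: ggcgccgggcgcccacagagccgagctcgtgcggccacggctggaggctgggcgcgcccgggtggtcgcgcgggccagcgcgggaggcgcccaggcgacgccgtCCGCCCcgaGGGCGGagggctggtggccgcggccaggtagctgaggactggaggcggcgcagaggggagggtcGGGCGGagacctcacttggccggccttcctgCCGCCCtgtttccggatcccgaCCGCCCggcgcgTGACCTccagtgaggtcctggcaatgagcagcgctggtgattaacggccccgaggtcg

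Windows were found for 7 of the members, 9 in all since *Cnr1* has 3 (*Nr5a1*, *Cdh4*, and *Nptx2* have no window here). Of the forms of the SF-1 half-site, only AAGGTCA was searched, on both strands. It was in 0 of the 9 windows and is in 4.71% of the 32544 distinct windows of all genes. The hexamer AGGTCA, which AAGGTCA contains, was in 1 of the 9 and is in 16.2% of all windows. It lay at base 243 of the first *Cnr1* window on the opposite strand. The TATA box TATAAA was in 0 of the 9 and is in 13.6% of all windows. The GC box was in 5 of the 9 windows, those of *Fezf1*, *Amigo2*, *Slit3*, *Vgll2*, and the first of *Cnr1*, and is in 35.9% of all windows. The share of G and C bases in the 4 sequences shown was 50% for *Fezf1*, 78.3% for *Slit3*, 55% for *Gda*, and 76.3% for *Cnr1*, and the median over all windows was 53%. These are matches of letters in a short window and say nothing of binding.

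*Nr5a1* was far higher on the VMH arrays than on all others and was measured in every nucleus. Its probe (A_55_P2076560) read 12163 on VMH1 and 11694 on VMH2, 325 and 384 on the Arc arrays, 688 and 383 on the DMH arrays, and 649.6 and 211 on the LH arrays. It was well above background on all 8 arrays, and the lower VMH array was 17.0-fold above the highest other array. The difference was 33.7-fold from the Arc (log2 5.08, SE 0.52, adjusted p = 0.0035), 23.2-fold from the DMH (log2 4.54, adjusted p = 0.00911), and 32.2-fold from the LH (log2 5.01, adjusted p = 0.00497). Among the Arc, DMH, and LH the arrays overlapped, and no pair passed the test (adjusted p from 0.685 to 0.951). The spread lay in the low nuclei, since DMH1 was above DMH2 and LH1 above LH2. The call against the DMH was lost without VMH1 (adjusted p = 0.0798), VMH2 (0.0726), or DMH2 (0.0616), with differences of 4.12 to 4.57 on the log2 scale. The difference from the LH was 5.82 on the log2 scale without LH1 and 4.20 without LH2, and it kept its call in both. With normexp background correction the differences from the Arc, DMH, and LH were 4.25, 3.93, and 4.09.

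*Fezf1*, a zinc finger transcription factor of the developing forebrain and hypothalamus, was measured on both VMH arrays and on 1 other. Its probe (A_51_P347619) read 7587 on VMH1 and 5982 on VMH2. On the Arc arrays it read 29.8 and 28.8 and on the DMH arrays 20.7 and 20.9, none of them well above background. In the LH it read 125 on LH1, not well above background, and 315 on LH2, where it was measured. The VMH was at least 59.6-fold above the Arc (adjusted p = 0.000384) and at least 72.0-fold above the DMH (adjusted p = 0.000463). From the LH the difference was 34.0-fold (log2 5.09, SE 0.41, adjusted p = 0.00204), a value that rests partly on LH1 at background and was 4.42 on the log2 scale without LH1 and 5.75 without LH2. These 3 calls held without any 1 of the 8 arrays, but the probe entered the test only through the VMH. With normexp the log2 differences were 5.13, 5.17, and 3.92, the first 2 of them under the bounds.

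The LH was in turn at least 1.75-fold above the Arc and at least 2.12-fold above the DMH for *Fezf1*. Both differences passed the test (adjusted p = 0.00971 and 0.0261), as did 6.02% of all probes lower in the Arc than in the LH and 0.664% of those lower in the DMH than in the LH. They rest on signals under or near background. The first was lost without Arc1 (adjusted p = 0.0716) or Arc2 (0.0665), the second without any array of the Arc, VMH, or DMH (0.0629 to 0.159), and both when dim signals were set to at least the dimmest measured signal (adjusted p = 0.242 and 0.254). With normexp they were -1.20 and -1.24 on the log2 scale, and the second was lost (0.0762). The order of the LH arrays was the opposite of that of *Nr5a1*, for which LH1 was the higher one.

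*Vgll2*, a vestigial-like cofactor of TEAD transcription factors, set the Arc apart from the other nuclei and did not set the VMH apart. Its probe (A_55_P2042456) read 1359 and 996 on the VMH arrays, 1035 and 825 on the DMH arrays, and 845 and 681 on the LH arrays. On the Arc arrays it read 76.0 and 84.0, which was not well above background. The VMH was at least 10.3-fold above the Arc (adjusted p = 0.000713), the DMH at least 8.17-fold (adjusted p = 0.0016), and the LH at least 6.71-fold (adjusted p = 0.00146). With normexp these differences were smaller than the bounds, at 1.95, 1.82, and 1.67 on the log2 scale, and still passed. In all, 3 member probes were lower in the Arc than in the DMH, with 0.727% of all probes. By limma 0 were higher at the adjusted threshold, with 0.533%. At an unadjusted p under 0.05, 5 were higher by limma and 2 by the Tukey-Kramer test. The share of all probes at that unadjusted threshold was not counted. The VMH and DMH arrays overlapped, with a log2 difference of 0.33 and a 95% interval from -0.26 to 0.92 (adjusted p = 0.683). From the LH the VMH differed by 0.62 with an interval from 0.03 to 1.21 (adjusted p = 0.22), and the DMH and LH differed by 0.28 with an interval from -0.31 to 0.88.

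*Slit3*, a secreted axon guidance ligand of the Robo receptors, was higher in the VMH than in each other nucleus by its 1 probe. This probe (A_51_P301809) read 1925 and 2410.3 on the VMH arrays, 263 and 312 on the Arc arrays, 374 and 283 on the DMH arrays, and 376 and 373 on the LH arrays. The lower VMH array was 5.12-fold above the highest other array. The VMH was 7.53-fold above the Arc (log2 2.91, SE 0.23, adjusted p = 0.00145), 6.62-fold above the DMH (log2 2.73, adjusted p = 0.00321), and 5.75-fold above the LH (log2 2.52, adjusted p = 0.00336). No 2 of the Arc, DMH, and LH passed the test against each other (adjusted p from 0.336 to 0.894). All 3 calls of the VMH held without any 1 of the 8 arrays, while with normexp the log2 differences were 2.23, 2.13, and 1.93.

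*Cdh4*, which encodes R-cadherin, a calcium-dependent adhesion molecule, was higher in the VMH by each of its 3 probes. The brightest (A_55_P2150831) read 4990.3 and 7067 on the VMH arrays, 870.0 and 1553 on the Arc arrays, 569.9 and 751 on the DMH arrays, and 1144 and 1178 on the LH arrays. It was 5.11-fold above the Arc (log2 2.35, SE 0.33, adjusted p = 0.0102), 9.08-fold above the DMH (log2 3.18, adjusted p = 0.00652), and 5.12-fold above the LH (log2 2.36, adjusted p = 0.0125). The second probe (A_52_P402897) read 4934 and 4918 in the VMH against 439 to 1124 elsewhere, and gave log2 differences of 2.45, 3.38, and 2.35 (SE 0.26, adjusted p = 0.00366, 0.00216, and 0.00547). The third (A_52_P181943) read 1734 and 3295 in the VMH against 219 to 694 elsewhere, and gave 2.15, 3.21, and 2.38 (SE 0.41, adjusted p = 0.0304, 0.0134, and 0.024). The probes correlated at 0.963 to 0.991 over the 8 arrays, and all put the DMH lowest, although no pair of the Arc, DMH, and LH passed the test by any of them.

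Single arrays decided several of the *Cdh4* calls. For the brightest probe, the call against the Arc was lost without Arc1 (adjusted p = 0.065) or VMH2 (0.0716), that against the DMH without VMH2 (0.0557) or DMH1 (0.0598), and that against the LH without VMH1 (0.058) or VMH2 (0.0777). The second probe lost only the call against the LH without VMH1 (0.0504). The third lost the call against the Arc without any array of the Arc, VMH, or DMH (0.0554 to 0.195), that against the DMH without VMH2, DMH1, or DMH2 (0.0684 to 0.0935), and that against the LH without VMH1, VMH2, or LH1 (0.0522 to 0.111), and its log2 difference from the DMH was 2.36 with normexp.

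*Amigo2*, a leucine-rich repeat adhesion molecule of the cell surface, was high in both the VMH and the Arc. Its probe (A_51_P176972) read 1578 and 1475 on the VMH arrays, 985 and 1190.5 on the Arc arrays, 443 and 572 on the DMH arrays, and 243 and 270.1 on the LH arrays. The arrays of the 4 nuclei did not overlap, in the order VMH, Arc, DMH, and LH. The difference of the VMH from the Arc was 1.41-fold, with a log2 interval from -0.03 to 1.02 (adjusted p = 0.275). The VMH was 3.03-fold above the DMH (log2 1.60, SE 0.22, adjusted p = 0.0176) and 5.96-fold above the LH (log2 2.58, adjusted p = 0.00268), and the Arc was 4.23-fold above the LH (adjusted p = 0.0033), where 3.33% of all probes were higher. The neighbors Arc and DMH (adjusted p = 0.0816) and DMH and LH (adjusted p = 0.12) did not pass. The call against the DMH was lost without VMH1 (0.133), VMH2 (0.0977), DMH1 (0.121), or DMH2 (0.06), and without scaling between arrays (0.107). With normexp the log2 difference from the LH was 1.79 for the VMH and 1.40 for the Arc.

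*Sema3a*, a secreted semaphorin that acts through neuropilins and plexins, gave unequal answers by its 2 probes. The brighter one (A_55_P2014249) read 919.9 and 671 on the VMH arrays, 212 and 266 on the Arc arrays, 112 and 247 on the DMH arrays, and 281 and 467 on the LH arrays, with DMH1 not well above background. Both VMH arrays were the highest, but none of the log2 differences of 1.73 from the Arc (SE 0.43, adjusted p = 0.0692), 2.24 from the DMH (adjusted p = 0.0568), and 1.12 from the LH (adjusted p = 0.202) passed the test. The first 2 passed without LH1 or without LH2 (adjusted p = 0.0442 from the Arc and 0.0353 from the DMH in either case). The difference from the Arc also passed without scaling, with normexp, with dim signals raised, with trended and robust moderation, and with only the 2 nuclei in the fit (0.0171 to 0.0458), and that from the DMH with normexp, dim signals raised, and trended and robust moderation (0.0271 to 0.0311). The other probe (A_55_P2054013) read 403 and 435 on the VMH arrays and 473 and 412 on the Arc arrays, which overlap, against 113 and 173 on the DMH arrays and 143 and 211 on the LH arrays.

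By this second *Sema3a* probe the VMH and the Arc differed by -0.08 on the log2 scale, with a 95% interval from -0.77 to 0.62. The VMH was 2.99-fold above the DMH (log2 1.58, SE 0.29, adjusted p = 0.0494), a call lost without any array of the Arc, VMH, or DMH (0.0879 to 0.253) and in 9 other settings. The difference of 1.27 from the LH did not pass (adjusted p = 0.057) but passed without LH2 (0.028). The Arc was 2.55-fold above the LH (adjusted p = 0.0342), which was lost without any array of the Arc or VMH or without LH1 (0.0664 to 0.196), and also without scaling (0.103), with quantile normalization (0.0614), with no filter (0.066), and with only the 2 nuclei in the fit (0.0977). With normexp these 3 differences were 0.87, 0.59, and 0.66 on the log2 scale. Over the 8 arrays the 2 probes correlated at 0.551.

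*Nptx2*, a secreted neuronal pentraxin that gathers AMPA receptors at synapses, was highest in the VMH, lowest in the Arc, and intermediate in the DMH and LH by both probes. The brighter one (A_55_P2147696) read 40689.6 and 57044 on the VMH arrays, 3402 and 4359 on the Arc arrays, 11759 and 10972 on the DMH arrays, and 21069 and 13033 on the LH arrays. The nuclei did not overlap. The VMH was 12.5-fold above the Arc (log2 3.65, SE 0.30, adjusted p = 0.00165), 4.24-fold above the DMH (log2 2.08, adjusted p = 0.0208), and 2.91-fold above the LH (log2 1.54, adjusted p = 0.0358). The Arc was also below the LH by 4.3-fold (adjusted p = 0.00896), whereas the Arc and DMH (adjusted p = 0.0758) and the DMH and LH (adjusted p = 0.422) did not pass the test against each other.

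The other *Nptx2* probe (A_52_P187058) read 6115 and 7323 on the VMH arrays, 387 and 376 on the Arc arrays, 1239.7 and 952 on the DMH arrays, and 2081 and 1816 on the LH arrays, with the same order of nuclei. Its log2 differences from the VMH were 4.13 for the Arc, 2.62 for the DMH, and 1.78 for the LH (SE 0.22, adjusted p = 0.000394, 0.00321, and 0.00846), and the first was 3.52 with normexp. The Arc was below the DMH by 2.85-fold (adjusted p = 0.0288) and below the LH by 5.1-fold (adjusted p = 0.00241). The probes correlated at 0.988 over the 8 arrays. The brighter probe lost the call against the DMH without any array of the Arc, VMH, or DMH (0.0502 to 0.137), that against the LH without any array but LH1 (0.0579 to 0.167), and that of the Arc against the LH without Arc1 (0.0771). Without scaling it also lost the calls against the DMH (0.112) and the LH (0.101). That against the LH was lost too with quantile normalization (0.0547), no filter (0.0662), and the replicate number as a block (0.0541). With only the 2 nuclei in the fit it was lost as well (0.153), and so it was by the other probe (0.0655). By the other probe, the call of the Arc against the DMH was lost with no filter (0.0567) and with the block (0.0527). The other probe lost the call against the LH without VMH1 (0.0516) or VMH2 (0.0578) and that of the Arc against the DMH without any array of the Arc, VMH, or DMH (0.0635 to 0.188).

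*Cnr1*, the cannabinoid receptor CB1 through which endocannabinoids dampen transmitter release, had the same order. Its probe (A_55_P1953753) read 13178 and 13903 on the VMH arrays, 1584 and 1492 on the Arc arrays, 5043 and 5838 on the DMH arrays, and 5663 and 5269 on the LH arrays. The DMH and LH arrays overlapped, with a log2 difference of -0.01 and a 95% interval from -0.46 to 0.44, and both lay between the VMH and the Arc. The VMH was 8.8-fold above the Arc (log2 3.14, SE 0.19, adjusted p = 0.000596), 2.49-fold above the DMH (log2 1.32, adjusted p = 0.0206), and 2.48-fold above the LH (log2 1.31, adjusted p = 0.0139). The Arc was below the DMH by 3.53-fold (adjusted p = 0.00912) and below the LH by 3.55-fold (adjusted p = 0.00312). The call of the VMH against the DMH was lost without any array of the Arc, VMH, or DMH (0.0591 to 0.145), that against the LH without VMH1 (0.0874) or VMH2 (0.0806), and that of the Arc against the DMH without any array of these 2 nuclei (0.0572 to 0.0905). Without scaling the calls of the VMH against the DMH (0.247) and the LH (0.0641) were lost, and with only the 2 nuclei in the fit that against the LH was (0.1).

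*Gda* encodes guanine deaminase, also known as cypin, which converts guanine to xanthine and is found in dendrites. Its brighter probe (A_55_P2097478) read 21279 and 18259.7 on the VMH arrays, 2356 and 1791 on the Arc arrays, 1737 and 2578 on the DMH arrays, and 1137 and 1209.5 on the LH arrays. The lower VMH array was 7.08-fold above the highest other array. The VMH was 9.6-fold above the Arc (log2 3.26, SE 0.27, adjusted p = 0.00145), 9.31-fold above the DMH (log2 3.22, adjusted p = 0.00314), and 16.8-fold above the LH (log2 4.07, adjusted p = 0.00093).

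The dimmer *Gda* probe (A_52_P116006) read 2238 and 2123 on the VMH arrays, 147 and 191 on the Arc arrays, 112 and 202 on the DMH arrays, and 29.0 and 29.4 on the LH arrays. It was well above background on Arc2 and DMH2 but not on Arc1, DMH1, LH1, or LH2. Its log2 differences were 3.70 from the Arc (SE 0.31, adjusted p = 0.00157) and 3.86 from the DMH (adjusted p = 0.00266), and it was at least 21.3-fold above the LH (adjusted p = 0.000386). All calls of the VMH by both probes held without any 1 of the 8 arrays, and the probes correlated at 0.964. With normexp the log2 differences of the dimmer probe were 2.50, 2.61, and 3.11, the last of them under the bound. By the dimmer probe the Arc was at least 1.64-fold above the LH (adjusted p = 0.0048) and the DMH at least 1.47-fold (adjusted p = 0.028), where 0.26% of all probes were above the LH in the DMH. Both calls were lost when dim signals were set to at least the dimmest measured signal (adjusted p = 0.239 and 0.475) and with normexp (0.0871 and 0.29), and the second without any array of the Arc, VMH, or DMH (0.0504 to 0.076). By the brighter probe neither difference passed (adjusted p = 0.107 and 0.215).

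**Figure D2:**
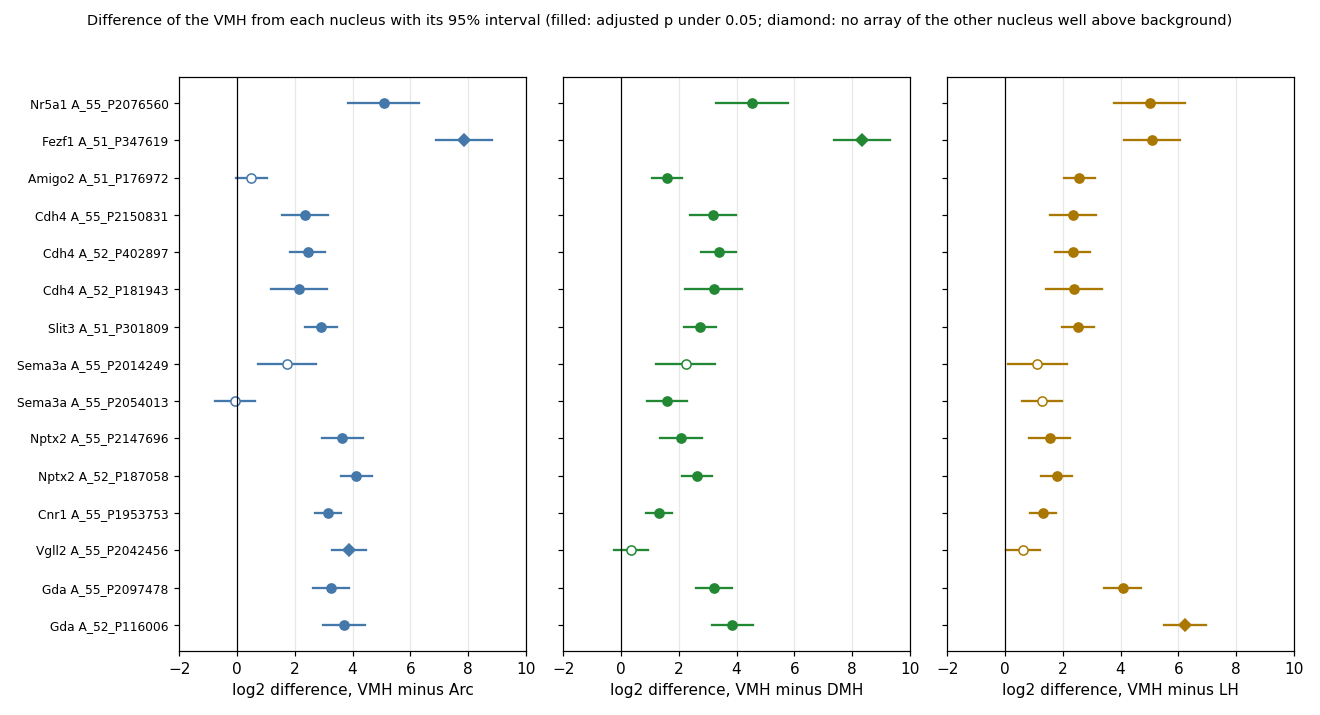
Log2 difference of the VMH from the Arc, DMH, and LH for each of the 15 probes with its 95% interval (limma), filled where the adjusted p is under 0.05 and drawn as a diamond where neither array of the other nucleus was well above background. The diamonds mark fitted values where the data give only a bound, as for *Fezf1* against the Arc and DMH (at least 59.6-fold and 72.0-fold), while *Amigo2*, *Sema3a*, and *Vgll2* are the genes with open symbols.

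**Figure D3:**
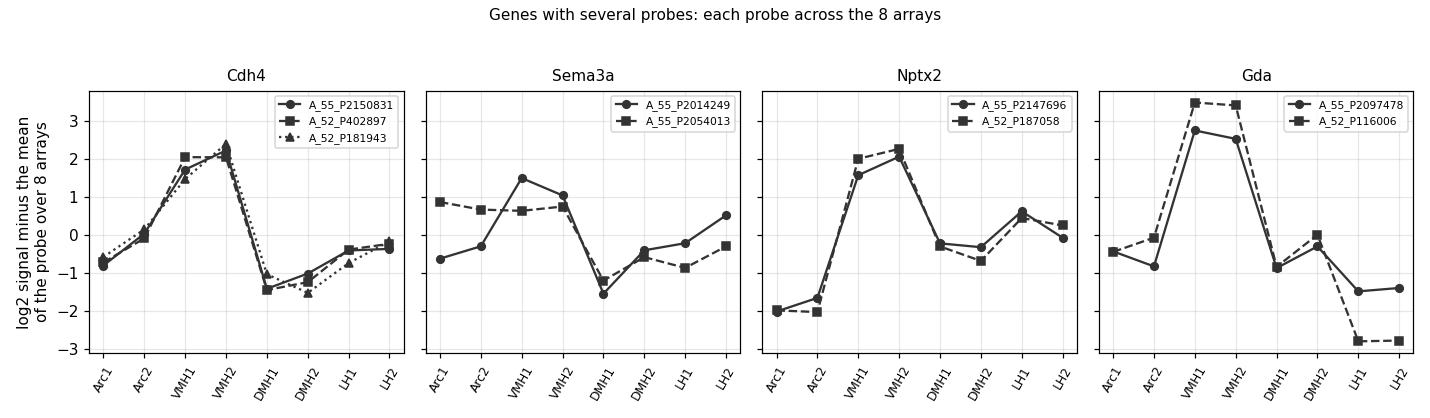
Log2 signal of each probe on the 8 arrays, less the mean of the probe, for the 4 genes with more than 1 probe. The probes of *Cdh4*, *Nptx2*, and *Gda* run together (r of at least 0.963), whereas those of *Sema3a* part on the Arc, VMH, and LH arrays (r = 0.551).

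Cell types other than VMH neurons also differed between the dissections, and their part in these results was not tested. The summed signal of 6 genes of neurons in general was 220389 to 245789 on the VMH arrays, 165063 to 167707 on the Arc arrays, 181868 to 186129 on the DMH arrays, and 206968 to 208045 on the LH arrays, and 3 of its 8 probes were higher in the VMH than in the Arc. For 8 oligodendrocyte genes the sum was 33448 to 41814 on the VMH arrays, 12517 to 20474 on the Arc arrays, 30051 to 30232 on the DMH arrays, and 115161 to 122205 on the LH arrays, and 9 of 13 probes were lower in the VMH than in the LH. For 6 astrocyte genes it was 35372 to 36012 on the VMH arrays, 27342 to 33619 on the Arc arrays, 37115 to 37418 on the DMH arrays, and 54575 to 55440 on the LH arrays, and 2 of 10 probes were lower in the VMH than in the Arc. For 5 microglia genes it was 102891 to 115467 on the VMH arrays, 92369 to 95064 on the Arc arrays, 101140 to 105128 on the DMH arrays, and 74789 to 77077 on the LH arrays. For 5 endothelial genes it was 2606 to 3053 on the VMH arrays, 2228 to 2505 on the Arc arrays, 3207 to 3963 on the DMH arrays, and 5374 to 6247 on the LH arrays. For 6 genes of tanycytes and ependymal cells it was 1948 to 2088 on the VMH arrays and 6072 to 7334 on the Arc arrays. On the DMH arrays it was 1540 to 1599 and on the LH arrays 1528 to 1729.5. Of its 6 tested probes, 3 were lower in the VMH than in the Arc and 1 than in the LH. Higher in the VMH were 1 than in the DMH and 1 than in the LH. Over all probes, 3.52%, 1.1%, and 2.24% were higher in the VMH than in the Arc, DMH, and LH. Lower were 2.4%, 0.945%, and 3.04%. All 6 genes of neurons in general, all 8 of oligodendrocytes, and 4 of the 6 of tanycytes and ependymal cells were measured on both VMH arrays. The sum for neurons in general was thus highest on the VMH arrays, as was that of 7 genes of the pars tuberalis and anterior pituitary (13362 to 16110 against 4802 to 9810 elsewhere). In the latter list *Chga*, the gene of chromogranin A, was the brightest on every array and was the 1 gene tested. *Cga*, the alpha subunit of the pituitary glycoprotein hormones, read 1425 on Arc1, the 1 array on which it was measured, while *Tshb*, *Gh*, *Prl*, and *Pitx1* were well above background on no array.

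The relatives of the members were searched for the same pattern. Of 21 paralogs, 20 had a probe and 11 were tested, by 13 probes, of which 3 were higher and 3 lower in the VMH than in the Arc, 2 higher and 0 lower than in the DMH, 2 higher and 2 lower than in the LH, and 2 higher than in each. Lower than in the DMH at an unadjusted p under 0.05 were 4 by limma and 3 by the Tukey-Kramer test. The share of all probes at that unadjusted threshold was not counted. Over all probes the shares called higher were 3.52%, 1.1%, 2.24%, and 0.54%, and those called lower 2.4%, 0.945%, and 3.04%, which also stand as the background of the lists that follow. Their median log2 differences were 0.16, 0.07, and -0.11. *Nptx1*, the neuronal pentraxin most like *Nptx2*, was measured on the VMH arrays alone, at 345 and 429, against 19.3 to 30.0 on the other 6 arrays. It was at least 3.4-fold above the Arc (adjusted p = 0.000394), at least 4.11-fold above the DMH (adjusted p = 0.000463), and at least 3.76-fold above the LH (adjusted p = 0.000456). With normexp the log2 differences were 2.24, 1.65, and 1.24, the last 2 of them under the bounds. The probe entered the test only through the VMH, where it is high, so the filter favored its calls, which are not independent evidence. *Nptx1* and *Nptx2* thus both had their highest signal in the VMH, but *Nptx2* was measured in all 4 nuclei.

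*Slit1*, a second Robo ligand, read 8585 and 9014 on the VMH arrays, 3635 and 4466 on the Arc arrays, 3044 and 3427 on the DMH arrays, and 3337 and 3394 on the LH arrays. Its log2 differences of 1.13, 1.45, and 1.39 (SE 0.20, adjusted p = 0.0235, 0.0179, and 0.0136) were smaller than those of *Slit3*, a difference between the genes that was not tested. The call against the Arc was lost without any array of the Arc, VMH, or DMH (0.0508 to 0.17), that against the DMH without any array of the VMH or DMH (0.0904 to 0.128), and that against the LH without VMH1 (0.0874) or VMH2 (0.0795). All 3 were lost without scaling (0.0561, 0.179, and 0.0546).

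*Nr5a2*, the paralog of *Nr5a1* known as liver receptor homolog 1, was measured in the Arc alone. Its brighter probe (A_51_P514449) read 2548 and 3248 on the Arc arrays, and 30.5 and 19.2 on the VMH arrays, 20.5 and 20.5 on the DMH arrays, and 22.7 and 27.7 on the LH arrays, none of these 6 well above background. The Arc was at least 27.7-fold above the VMH (adjusted p = 0.000256). By the other probe (A_55_P2142908), at 433 and 579.7 on the Arc arrays and 18.3 to 28.1 elsewhere, it was at least 4.82-fold above (adjusted p = 0.000706). With normexp the log2 differences of the VMH from the Arc were -3.92, smaller in size than the bound, and -2.30. Both probes entered the test only through the Arc, where they are high, so the filter favored their calls, which are not independent evidence. *Nr5a1* itself was measured on both Arc arrays, at 325 and 384, so both members of the family gave a signal there.

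Genes that regulate SF-1 or act with it were a further list. Of 22 listed regulators and cofactors, 20 were tested, by 34 probes, of which 4 were higher and 1 lower in the VMH than in the Arc, 1 higher and 0 lower than in the DMH, 2 higher and 1 lower than in the LH, and 1 higher than in each, where 3.52%, 1.1%, 2.24%, and 0.54% of all probes were higher. Lower than in the DMH at an unadjusted p under 0.05 was 1 by limma and 0 by the Tukey-Kramer test, with no share of all probes counted. The list had median log2 differences of 0.21, 0.10, and 0.21. The 1 probe higher than in each was that of *Nr0b1*, which encodes DAX-1, a repressor that binds SF-1. It read 958 and 958 on the VMH arrays, 123 and 198 on the Arc arrays with only Arc2 well above background, 22.0 and 20.5 on the DMH arrays, and 24.3 and 28.6 on the LH arrays. The VMH was 6.15-fold above the Arc (log2 2.62, SE 0.27, adjusted p = 0.00343), at least 10.2-fold above the DMH (adjusted p = 0.000463), and at least 9.36-fold above the LH (adjusted p = 0.000386). With normexp the log2 differences were 1.67, 3.41, and 3.23. *Nr0b1* entered the test only through the VMH, where it is high, so the filter favored its calls, which are not independent evidence.

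Many of the genes that SF-1 is known to drive in the adrenal gland, the gonads, and the pituitary did not pass the filter on dim probes. Of 22 such genes 21 had a probe, and 10 of them passed, by 13 probes. The 11 not tested include *Cyp11a1*, *Cyp19a1*, and *Hsd3b1*, enzymes of steroid synthesis that were well above background on no array, and *Cyp17a1*, which was on DMH2 alone. Also not tested, *Amh* was well above background on 2 arrays and *Akr1b7* on 1. *Akr1b7* read 104 and 179 on the VMH arrays and 31.6 to 91.0 on the other 6. Of the 13 probes, 2 were higher in the VMH than in the Arc, 1 than in the DMH, and 1 than in the LH, where 3.52%, 1.1%, and 2.24% of all probes were, and 0 were lower by limma or the Tukey-Kramer test, at the adjusted threshold or at an unadjusted p under 0.05, with median log2 differences of -0.11, -0.04, and 0.10. The 1 probe higher than in each was again *Nr0b1*, which stands in this list, in that of the regulators, and in that of other genes known from the VMH, and is counted in each. *Star*, the cholesterol carrier of steroid synthesis, was named after its values were seen. Its brighter probe (A_52_P165654) read 238 and 230.4 on the VMH arrays and 253 to 351 on the other 6, with a log2 difference of -0.35 from the Arc (SE 0.23, adjusted p = 0.465). The other probe (A_55_P2113141) read 179 and 144 on the VMH arrays and 131 to 297 on the other 6, with a difference of 0.07 from the Arc (adjusted p = 0.949).

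The molecules that the members bind or act with were also listed, 28 genes of which 25 were tested by 39 probes. Against the Arc 8 of these were higher in the VMH and 1 was lower, against the DMH 1 and 1, and against the LH 1 and 1, with median log2 differences of 0.46, 0.21, and 0.13. *Napepld*, which encodes an enzyme of the synthesis of the endocannabinoid anandamide, was the 1 probe higher than in each. It read 9185 and 9031 on the VMH arrays, 3472 and 3902 on the Arc arrays, 4163 and 4188 on the DMH arrays, and 4815 and 5072 on the LH arrays, and its log2 differences were 1.31, 1.13, and 0.88 (SE 0.19, adjusted p = 0.0103, 0.033, and 0.0433). The groups did not overlap, but the call against the Arc was lost without any array of the Arc or VMH (0.065 to 0.0935), that against the DMH without any array of the Arc, VMH, or DMH (0.0827 to 0.189), and that against the LH without any 1 of the 8 arrays (0.0544 to 0.198). Those against the DMH and LH were also lost without scaling (0.35 and 0.16), with no filter (0.0825 and 0.109), when the replicate number entered as a block (0.0563 and 0.0614), and with only the 2 nuclei in the fit (0.0642 and 0.194).

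Other genes known from the VMH moved in both directions. Of 29 probes of 22 genes, 13 were higher and 5 lower in the VMH than in the Arc, 8 higher and 2 lower than in the DMH, and 9 higher and 2 lower than in the LH, where 3.52%, 1.1%, and 2.24% of all probes were higher, with median log2 differences of 0.57, 0.77, and 1.22. Against each other nucleus 6 probes were higher and 2 were lower, where 0.54% of all probes were higher and 0.484% lower. *Adcyap1*, the gene of the neuropeptide PACAP, read 17586 and 18972 on the VMH arrays, 1094 and 637 on the Arc arrays, 2399 and 2821 on the DMH arrays, and 2143 and 2607 on the LH arrays. Its log2 differences were 4.45, 2.81, and 2.95 (SE 0.29, adjusted p = 0.000768, 0.00644, and 0.00399), and that from the DMH was lost without VMH1 (0.055), VMH2 (0.0564), or DMH1 (0.0606).

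*Sox14*, a transcription factor of the SoxB2 group, read 563 and 762 on the VMH arrays and 212 and 187 on the Arc arrays. On the DMH arrays it read 90.7 and 83.4 and on the LH arrays 23.4 and 28.6, none well above background. The VMH was 3.29-fold above the Arc (log2 1.72, SE 0.23, adjusted p = 0.00904), at least 7-fold above the DMH (adjusted p = 0.00277), and at least 6.4-fold above the LH (adjusted p = 0.000386). The call against the Arc was lost without Arc1 (0.064), Arc2 (0.0761), or VMH2 (0.0611). With normexp it was lost too (log2 1.07, adjusted p = 0.069), and the differences from the DMH and LH were 1.47 and 2.16 on the log2 scale, under the bounds given.

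*Dlk1*, which encodes a Delta-like transmembrane protein, ran the other way. Its probe A_55_P2105371 read 1281 and 1506 on the VMH arrays, 11507 and 12443 on the Arc arrays, 7526 and 6033 on the DMH arrays, and 9255 and 6793 on the LH arrays, with log2 differences of -3.11, -2.28, and -2.51 (SE 0.24, adjusted p = 0.00127, 0.00667, and 0.00366). The call against the DMH was lost without VMH1 (0.0614) or DMH1 (0.0606). The other probe, A_66_P117477, gave -2.20, -1.76, and -1.93 (SE 0.27, adjusted p = 0.00633, 0.0237, and 0.0116). It lost the call against the Arc without Arc1, Arc2, or VMH2 (0.0503 to 0.0603), that against the DMH without any array of the Arc, VMH, or DMH (0.0651 to 0.159), and that against the LH without VMH1 (0.073) or VMH2 (0.0754).

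**Figure D4:**
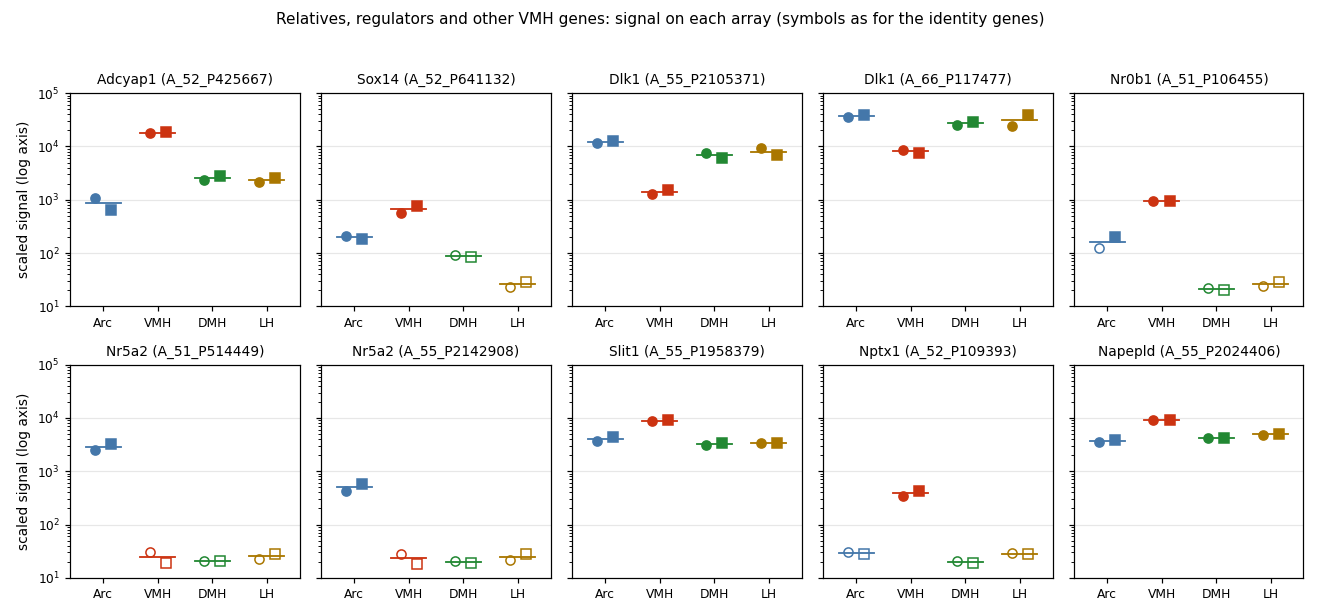
Scaled signal (log axis) of *Adcyap1*, *Sox14*, *Dlk1*, *Nr0b1*, *Nr5a2*, *Slit1*, *Nptx1*, and *Napepld* in the Arc, VMH, DMH, and LH, with a circle for replicate 1, a square for replicate 2, an open symbol where the probe was not well above background, and a line at the mean. *Nptx1* has filled symbols in the VMH alone and *Nr5a2* in the Arc alone, and *Dlk1* is lowest in the VMH.

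The genes most like *Nr5a1* were sought among the 60 probes of 55 genes whose mean was at least 4-fold higher in the VMH than in each other nucleus. By Pearson correlation of log2 signals over the 8 arrays, the 8 nearest were *Myo5b* (0.976), *Gpr149* (0.972), *Slit3* (0.97), *Cnih3* (0.97), *Rasal1* (0.96), *Rab38* (0.956), *Megf11* (0.953), and *Nptx1* (0.953). The arrays share a slide, a scan, and the contrast of the VMH with the rest, which the choice of probes fixes. *Myo5b*, *Gpr149*, *Rab38*, *Megf11*, and *Nptx1* were measured on 2 arrays each, so that most of their values lie at background. By Spearman correlation 2 of the 8 remained among the nearest 8, so the list depends on the measure.

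*Slit3* was the member nearest to *Nr5a1* (r = 0.97), followed by the brighter *Gda* probe (0.939), the brightest *Cdh4* probe (0.878), and *Fezf1* (0.860). *Nptx2* lay at 0.820 and 0.827 by its probes, *Cnr1* at 0.760, *Amigo2* at 0.627, *Vgll2* at 0.504, and the *Sema3a* probes at 0.686 and 0.393. By Spearman correlation the order was another, with *Vgll2* at 0.857, *Slit3* at 0.81, the *Nptx2* probes at 0.667 and 0.619, *Cnr1* at 0.548, *Amigo2* at 0.524, the brighter *Gda* probe at 0.476, the brightest *Cdh4* probe at 0.405, *Fezf1* at 0.333, and the *Sema3a* probes at 0.405 and -0.095.

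**Figure D5:**
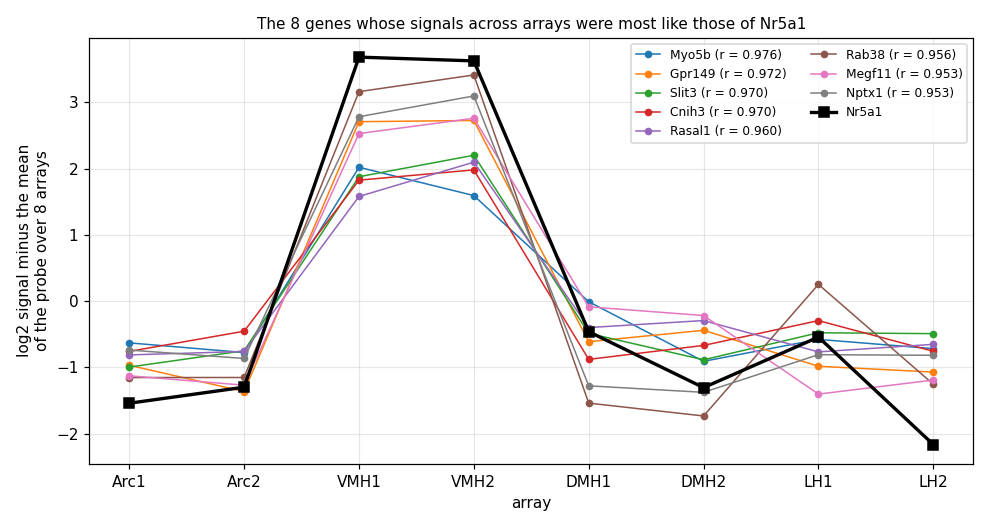
Log2 signal on the 8 arrays, less the mean of each probe, for *Nr5a1* (black squares) and the 8 genes nearest to it by Pearson correlation. All 9 lines peak on VMH1 and VMH2, and *Nr5a1* is lower on LH2 than on LH1 while *Slit3* is level.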

How the data were processed

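Gene expression was measured on 8 single-color arrays, 2 per nucleus, all on 1 slide read in 1 scan, with replicate 1 in one row and replicate 2 in the other. The RNA was amplified by a whole transcriptome kit and labelled chemically. The deposited processed signal is an intensity of the red channel on a linear scale, which the authors extracted with Agilent Feature Extraction (version 10.7.3.1 per the file headers, 11.5.1.1 per the labels), with background and spatial trend removed, low values replaced by a minimum, and no scaling between arrays. The dye is Cy3 in the labels but Cy5 in the methods, and the red channel is that of Cy5. The other deposited columns used, per the file headers, are probe names, accessions, and marks of outlier, saturated, and well above background spots. Of 28390 probes with a RefSeq accession, 26762 (94.3%) were given a symbol through the annotation GRCm38.p6. The accessions behind the symbols can be old.

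Outlier spots were left out, spots of a probe averaged, each array divided by its 75th percentile, and log2 taken (Python 3.11.15, pandas 2.3.3). limma 3.58.1 in R 4.3.3 fitted 1 mean per nucleus to 28896 probes, those called above background by each array of some nucleus. The residual degrees of freedom were 4 and the prior ones 3.02. Benjamini-Hochberg adjustment ran over all tested probes per comparison, and 0.05 was the threshold. The methods name the Tukey-Kramer test for several groups and no test for the arrays in particular. A nucleus with neither array above background gives only a bound, the brighter mean over the higher of the dim signal and the lowest measured one. The number of arrays limits the precision. The fit was tested on simulated data, a check of the code and not of these results.

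The members, gene lists, and tests were chosen with earlier results of these data known. All member probes are named. From each list those passing against every other nucleus in 1 direction are named, or the 4 with the largest difference where more pass, and *Nr5a2* and *Nr0b1* always. Any other gene of the gene and marker lists whose signal is described was picked with its values in view. The alternatives tried were no scaling, quantile normalization, normexp with an offset of 50 on median signals, the deposited table of all arrays, no filter, a stricter filter that asks for all 8 arrays, keeping outlier spots, a floor for dim signals, a block for the replicate number, each array left out, trended and robust moderation, a fit of 2 nuclei, and the Tukey-Kramer test of the methods. Promoter windows came from RefSeq. Same-numbered arrays deviated together in only some nuclei (correlations from -0.03 to 0.26), so the numbers were not taken to pair the samples.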

Additional observations from a re-analysis of the deposited data

How the results depend on the processing

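The counts of member probes higher in the VMH than in the Arc, DMH, LH, and each, which were 12, 13, 12, and 11, were 0, 0, 0, and 0 by the Tukey-Kramer test of the methods after adjustment over all probes, and 12, 14, 13, and 11 at an unadjusted p under 0.05 of that test, which borrows no spread across probes. Over all 28896 probes that test called 1, 3, 3, and 1 after adjustment, and the share at the unadjusted threshold was not counted. With only the 2 nuclei compared in the fit, the last 2 counts were 8 and 7. Leaving out each array gave 10 to 13, 6 to 14, 6 to 12, and 4 to 10. Without VMH1 the counts against the DMH, LH, and each fell to 8, 6, and 4, and without VMH2 to 6, 7, and 5. Leaving out DMH1 or DMH2 gave 7 against the DMH and 7 against each, and leaving out Arc1 gave 7 against each, all with fewer arrays in the fit. In the other 10 settings the counts were 9 to 13, 9 to 14, 10 to 13, and 9 to 11, with 9, 11, 11, and 9 of the 11 member probes that are left when all 8 arrays must be above background. With the replicate number as a block they were 12, 12, 11, and 10, and 5 of the 84 named differences lost their call, those of the *Sema3a* probe A_55_P2054013 against the DMH, 2 of *Nptx2*, and 2 of *Napepld*. Over all probes 1018, 317, 646, and 156 were higher, which became 645 against the Arc without the filter, 149 and 82 against the DMH and each without scaling, 117 and 58 against the LH and each with only 2 nuclei, and 214 to 1437, 70 to 486, 102 to 1634, and 28 to 214 with an array left out. Without scaling, which moves the median of all probes by 0.26 against the Arc and -0.19 against the DMH, the member counts were 13, 9, 10, and 9. The difference of the *Sema3a* probe A_55_P2054013 between the VMH and the Arc turned to 0.19 without scaling and ran from -0.18 to 0.023 with an array left out, above 0 without Arc1 alone, and did not pass. Of all alternative values of the named differences, 1371 kept direction and side of the threshold, 263 lost the call, 15 gained one, and 2 reversed. Normexp moved 39 of these differences by over 1.5 times, and raising dim signals moved 15. The cause was not tested. Probes at background in a nucleus give bounds there, so small differences cannot be resolved between the Arc and DMH for *Fezf1*, among the Arc, DMH, and LH for *Nptx1*, and among the VMH, DMH, and LH for *Nr5a2*.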

Other observations

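Some genes of the lists outside the naming rule were singled out after their values were seen. *Nr2f2* (COUP-TFII), an orphan nuclear receptor, was not well above background on the Arc arrays, at 131 and 109.9, and read 8999.7 and 7114 on the VMH arrays, 3927 and 3706 on the DMH arrays, and 4074 and 4426 on the LH arrays, so the VMH was at least 62.1-fold above the Arc (adjusted p = 0.000167). A signal at background in the Arc alone was also seen for *Vgll2*, for *Bdnf*, and by the *Cckbr* probe A_52_P596375, but not by the other *Cckbr* probe. *Bdnf*, the neurotrophin, read 1730.4 and 1735 on the VMH arrays and 92.2 and 35.1 on the Arc arrays, at least 15.3-fold apart (adjusted p = 0.00285), and its differences of 2.24 from the DMH and 1.68 from the LH did not pass (adjusted p = 0.0803 and 0.101). *Esr1*, the estrogen receptor known from the ventrolateral VMH, was lower in the VMH than in the Arc by its 3 probes. The Arc was at least 9.12-fold above by 1 of them, which was not well above background on the VMH arrays (adjusted p = 0.00452), and the log2 differences of the other probes were -3.23 and -2.67 (adjusted p = 0.0218 and 0.00221). The 8 partner probes higher in the VMH than in the Arc were those of *Plxna4*, *Gria1*, *Gria2*, *Gria3* (2 probes), *Dagla*, *Napepld*, and *Mgll*. Of these, *Dagla* entered the test only through the VMH, where it is high, so the filter favored its call, which is not independent evidence. The lower one was *Nrp1*, a receptor of Sema3a, at -1.87 (adjusted p = 0.0304).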
